A study of Mus musculus with 6 samples.

Results

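Small nucleolar RNAs (snoRNAs), the small Cajal body RNAs and the long noncoding genes that carry some of them were measured in 6 clones of MIN6, a mouse insulinoma line used as a β cell model. The members were chosen by symbol and selected on their mean level: genes named Snord, Snora, Scarna, Snhg with a number, or *Gas5*, with a mean of at least 0.5 TPM (transcripts per 1000000 transcripts, a level per length) over the 6 clones, leaving out *Snhg14*, *Snord115* and *Snord116*. This gave 74 members of 148 listed genes with these names, out of 17823 genes at this level and 53808 listed. Of the other 74 such genes, 64 were at 0 in every clone and 10 lay above 0 but under 0.5 TPM. The members were 39 Snord, 17 Snora, 6 Scarna and 12 host genes (*Gas5* and 11 Snhg). The rule used the symbol and the level alone, but it was set with earlier results of these data known, so that these levels are a description.

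The clones descend from MIN6 cells that express Cas9, infected with a lentiviral guide, selected with puromycin and grown from single cells. In the 3 control clones the guide targeted intron 2 of *Snd1*, which encodes a coregulator with nuclease-like and Tudor domains. In the 3 *Snd1* knockout (KO) clones the guide targeted exon 2. The study's sequences place *Snd1* KO clones 1 and 2 under the same exon 2 guide and clone 3 under another, with a major deletion in clone 2. Each group therefore held 3 single-cell clones with 1 bulk RNA library each, all carried Cas9 and a guide, and p-values measure the spread between clones. In bulk RNA, fewer cells with an RNA and less RNA in each cell cannot be told apart.

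snoRNAs are short RNAs of the nucleolus. Most C/D box snoRNAs (Snord) guide the 2′-O-methylation of ribosomal RNA and most H/ACA box snoRNAs (Snora) guide its pseudouridylation, while Cajal body RNAs (Scarna) do the same for spliceosomal RNAs. Most mammalian snoRNAs are cut out of the introns of other genes, called hosts, many of which encode ribosomal proteins or nucleolar proteins. Snhg genes and *Gas5* are hosts whose own spliced RNA is noncoding, and these RNAs are known to be short-lived in growing cells.

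The sequences of the Snord genes with the highest mean TPM, and of *Snord32a* and *Snord98*, chosen after their values were seen because their groups did not overlap, are shown first. They come from GENCODE M21 transcripts on the GRCm38 (mm10) build, and capitals mark the C box (TGATG within the first 20 bases) and the D box (CTGA within the last 16).
*Snord104* (chr11:106500993-106501062, plus strand, no host annotated): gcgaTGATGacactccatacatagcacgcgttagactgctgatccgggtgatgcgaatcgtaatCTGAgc
*Snord49a* (chr11:62603450-62603521, plus strand, intron of *2410006H16Rik*): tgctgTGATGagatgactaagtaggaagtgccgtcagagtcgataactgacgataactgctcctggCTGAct
*Snord72* (chr15:5118404-5118484, plus strand, intron of *Rpl37*): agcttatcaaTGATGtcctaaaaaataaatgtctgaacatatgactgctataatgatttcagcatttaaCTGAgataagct
*Snord98* (chr10:62765576-62765640, minus strand, intron of *Ccar1*): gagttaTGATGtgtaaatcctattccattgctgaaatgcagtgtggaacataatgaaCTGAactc
*Snord32a* (chr7:45127382-45127464, minus strand, intron of *Rpl13a*): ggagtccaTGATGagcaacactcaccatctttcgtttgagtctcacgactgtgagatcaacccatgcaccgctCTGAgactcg
Both boxes stood in 31 of 39 Snord members (79.5%), against 2 of 2897 other annotated small RNA genes of 60 to 110 bases (0.07%).

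For the H/ACA class the genes with the highest mean TPM are shown, with *Snora30* and *Snora2b* added for the same reason as above. Capitals mark an H box (ANANNA, the match nearest the middle) and ACA within the last 8 bases.
*Snora57* (chr19:8888538-8888685, minus strand, no host annotated): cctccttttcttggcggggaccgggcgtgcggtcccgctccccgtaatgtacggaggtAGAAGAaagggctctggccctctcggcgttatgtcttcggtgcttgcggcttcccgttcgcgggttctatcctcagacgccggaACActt
*Snora31* (chr14:75847905-75848034, plus strand, intron of *Tpt1*): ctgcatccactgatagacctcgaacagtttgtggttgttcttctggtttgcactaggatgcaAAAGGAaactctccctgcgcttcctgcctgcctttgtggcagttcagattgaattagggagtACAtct
*Snora41* (chr1:63179004-63179135, plus strand, intron of *Eef1b2*): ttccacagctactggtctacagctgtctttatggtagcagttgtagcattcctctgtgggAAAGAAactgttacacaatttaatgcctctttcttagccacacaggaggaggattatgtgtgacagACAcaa
*Snora30* (chr7:127527874-127528003, plus strand, intron of *Srcap*): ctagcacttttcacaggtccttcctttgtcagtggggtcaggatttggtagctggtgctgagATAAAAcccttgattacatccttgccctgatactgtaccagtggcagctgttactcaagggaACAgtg
*Snora2b* (chr15:98526346-98526482, minus strand, within *Kansl2* and overlapping an annotated exon): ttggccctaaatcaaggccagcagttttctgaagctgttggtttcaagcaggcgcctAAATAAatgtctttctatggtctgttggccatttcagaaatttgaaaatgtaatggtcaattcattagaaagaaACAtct
Both boxes stood in 16 of 17 Snora members (94.1%), against 8 of 777 other small RNA genes of 120 to 210 bases (1.03%). ANANNA is a loose pattern, and a match is a description of the letters.

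Among Cajal body RNAs, *Scarna9* is built like a C/D box RNA, with the same 2 boxes in capitals, and *Scarna13* like an H/ACA box RNA.
*Scarna9* (chr9:15326264-15326333, minus strand, intron of *Cep295*): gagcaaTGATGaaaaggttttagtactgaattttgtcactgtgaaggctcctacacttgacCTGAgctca
*Scarna13* (chr12:105031075-105031349, minus strand, within *Snhg10* and overlapping an annotated exon): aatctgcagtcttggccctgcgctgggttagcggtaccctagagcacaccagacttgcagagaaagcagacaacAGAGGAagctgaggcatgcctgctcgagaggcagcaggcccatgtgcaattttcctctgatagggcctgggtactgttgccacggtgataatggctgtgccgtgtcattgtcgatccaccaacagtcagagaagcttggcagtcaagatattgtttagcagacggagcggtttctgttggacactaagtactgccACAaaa
Across all 62 snoRNA and Cajal body members, lengths ran from 64 to 414 bases with a median of 91.5. Of these members 13 had another annotated snoRNA gene identical over at least 90% of their length, so reads could be shared between copies: *Snora30* matched *Gm25133* over 98.46% of its length, *Snora41* matched *Gm23723* over 97.73%, *Snora57* matched *Gm26132* over 95.95% and *Snora2b* matched *Gm22704* over 91.97%.

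The whole reads behind the TPM values could be recovered for all 74 members, and they show how thinly the snoRNAs were covered. Library totals were 25805760 to 32993334 reads on genes. The 62 snoRNA and Cajal body members together held 1835 reads in all 6 clones, from 0.00073% to 0.00151% of a library, whereas the 12 hosts held 33314. The median snoRNA member had a mean of 2.167 reads per clone and the median host 430.4.

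One read on a gene of 70 bases was worth 2.494 to 2.886 TPM, so that a handful of reads gave levels that would be moderate for a longer gene. Of the 62, 54 had a mean under 10 reads, 23 had at most 3 reads in every clone and 26 were above 0 in every clone. A count of 0 allows up to 3 reads, or 7.48 to 8.66 TPM at 70 bases, and such limits cover counting error only. The libraries had inserts of about 300 to 400 bases, longer than nearly all of these RNAs (61 of 62 have at most 300 bases), and the study's methods name no small RNA library. The part of insert length in these low counts was not tested. For a snoRNA inside a host, reads of the snoRNA itself and of host RNA that still holds the intron cannot be told apart.

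Just inside the level rule stood *Snord13*, with 1 read each in *Snd1* KO clones 1 and 2 and none elsewhere (mean 0.633 TPM), and *Scarna2* (mean 0.852 TPM). Just outside stood *Scarna3a*, with 1 read each in *Snd1* KO clones 2 and 3 (mean 0.463 TPM), and the host *Snhg11* (mean 0.446 TPM). *Snhg11* had 12, 10 and 19 reads in the controls (clones 1, 2 and 3 in order, here and throughout) against 45, 40 and 38 after knockout. All 3 *Snd1* KO clones were above all control clones for this gene, which the level rule left out by a small margin.

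Whether a snoRNA gene was measured at all went with its place in the annotation. Of the 133 listed Snord, Snora and Scarna genes, 73 overlapped an exon of another gene on the same strand, and 60 of those 73 were at 0 in every clone, with 7 reaching the members (9.59%). Of the 60 genes without such an overlap, 4 were at 0 in every clone and 55 were members (91.7%). The median over all 6 clones was 0 reads with an overlap and 12.5 without.

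**Figure D1:**
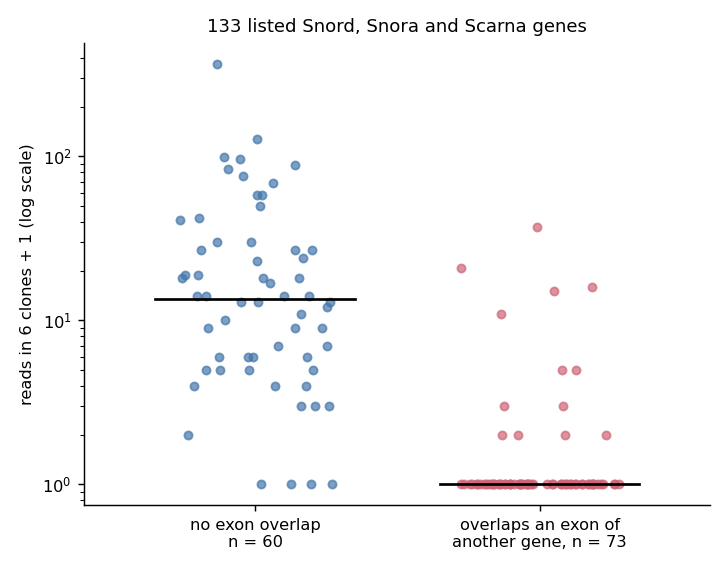
Each point is 1 of 133 listed Snord, Snora and Scarna genes, plotted by its reads summed over 6 clones plus 1 (log scale), for 60 genes without and 73 genes with a same-strand exon of another gene over them; black lines are medians. With an overlap 60 of 73 genes lie at 0 reads, and without one 4 of 60 do.

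Most listed snoRNAs of the classical hosts were among the unmeasured. Of 20 listed snoRNA genes inside a Snhg gene or *Gas5*, 15 were at 0 in every clone, and 14 of those 15 overlapped an exon. These included all 4 listed genes inside *Gas5* (*Snord47*, *Snord78* and 2 genes named *Snord80*), all 5 inside *Snhg12* (*Snora44*, *Snora61*, *Snord99* and 2 named *Snora16a*), and *Snord22* in *Snhg1*, *Snord50a* and *Snord50b* in *Snhg5*, *Snora9* in *Snhg15* and *Snora24* in *Snhg8*. The remaining 5 were members: *Snora73a* and *Snora73b* in *Snhg3*, *Snora78* in *Snhg9*, *Snord87* in *Snhg6* and *Scarna13* in *Snhg10*. How HTSeq, named in the submitters' notes, was set to count reads that fit 2 genes is not given in the sources used here, and its part in these zeros was not tested. A gene listed at 0 here is therefore not shown to be silent.

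*Snd1* itself was at 113, 119 and 112 TPM in the controls and 14.7, 57.1 and 19.9 TPM in *Snd1* KO clones, lower in every KO clone, with the most left in *Snd1* KO clone 2 (log2 fold change -2.11, limma adjusted p = 0.511). Markers fit the label of the cells: the 7 β cell markers summed to 43655 to 81431 TPM, and 15 of 19 markers of other cell types were under 1 TPM in every clone. The other-cell markers summed to 179 to 316 TPM in controls and 59 to 1105 TPM in *Snd1* KO clones, nearly all from the alpha cell hormone *Gcg*, and their part in the results was not tested.

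Summed over each class, the snoRNA levels were higher on average in *Snd1* KO clones and the host level was not. The Snord sum was 280, 289 and 423 TPM in the controls against 463, 609 and 422 TPM in the *Snd1* KO clones (331 ± 80.0 against 498 ± 98.5, SD, n = 3 each, a ratio of 1.51). Control clone 3 lay with the *Snd1* KO clones, so the groups overlapped. *Snord104* alone was at 214 TPM in that clone, against 94.8 and 86.7 TPM in control clones 1 and 2. The Snora sum was 116, 113 and 120 TPM against 171, 166 and 125 TPM (ratio 1.32), where the lowest *Snd1* KO clone was just above the highest control.

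The Scarna sum was 29.3, 49.8 and 78.5 TPM in controls and 60.8, 87.4 and 70.03 TPM in *Snd1* KO clones (ratio 1.38), with overlapping groups. The 12 hosts summed to 213, 195 and 251 TPM against 219, 254 and 189 TPM, a ratio of 1.004 and the same range in both groups. *Snd1* KO clone 2 had the highest sum in the Snord, Scarna and host classes. It also had the most snoRNA and Cajal body members above 0, 54 of 62, compared with 42 to 48 in the other clones.

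**Figure D2:**
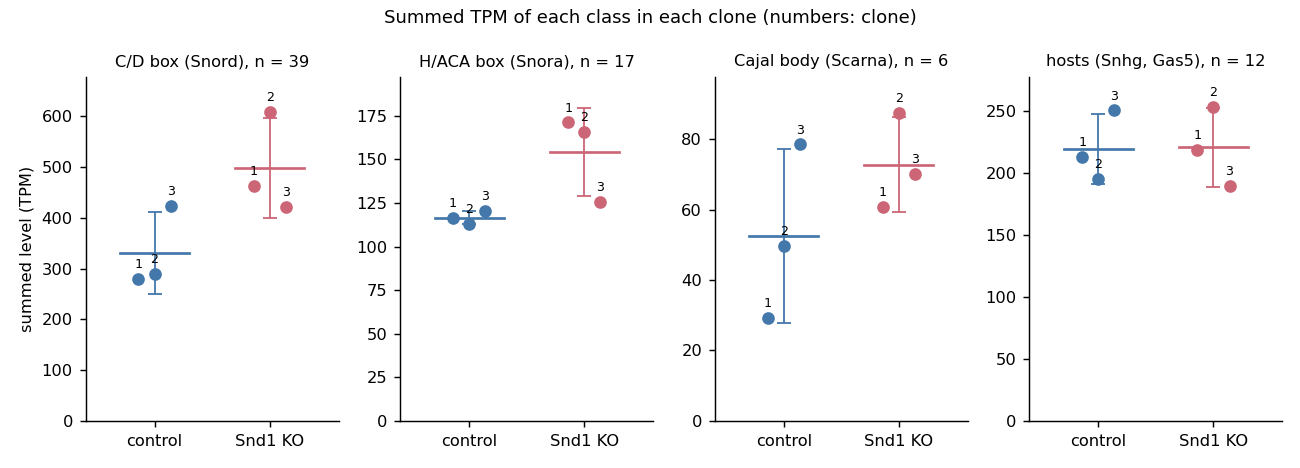
Points are the summed TPM of a class in each clone (clone number above the point), with the mean (line) and SD (bar) of 3 clones per group. The Snord sum of control clone 3 (423 TPM) lies among the *Snd1* KO clones (422 to 609 TPM), and the host sums of the groups cover the same range.

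The median gene among other snoRNA-type and other short genes was also higher in *Snd1* KO clones. On the log2(TPM + 1) scale, which understates the change of low genes, the median log2 fold change (*Snd1* KO minus control) was 0.58 for Snord, 0.17 for Snora, 0.58 for Scarna and 0.02 for hosts, against 0.04 for all 17823 genes tested. These medians include members with at most 3 reads in every clone. Without them it was 0.74 for 21 Snord, 0.16 for 13 Snora (7 of which were higher) and 0.51 for 5 Scarna. It was 0.44 for the 62 snoRNA and Cajal body members, 45 of which were higher, and 0.58 for the 39 of them with more than 3 reads in some clone, 28 of which were higher. It was 0.42 for 159 snoRNA-type genes without such a symbol, 103 of which were higher. It was 0.36 for the 1004 other genes of at most 300 bases, 685 of which were higher, and 0.17 for 3064 other genes with a mean under 10 reads, 1940 of which were higher. The summed level had a ratio of 1.30 both for the 159 snoRNA-type genes and for the 3064 genes with few reads. The 1004 other short genes summed to 33552, 34426 and 66869 TPM in controls and 26196, 43410 and 33087 TPM in *Snd1* KO clones, a ratio of 0.76 that was 1.007 without control clone 3. None of these differences between gene sets was tested.

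No member passed the test between groups. Called means an adjusted p under 0.05 (limma on log2(TPM + 1), Benjamini-Hochberg over all genes tested) with at least a 2-fold change. By this rule 0 of 74 members were called, and 1 of 17823 genes was (0.00561%). The targeted gene *Snd1* was not called either (log2 fold change -2.11, limma adjusted p = 0.511), so 0 calls do not show that no member changed. At an unadjusted p under 0.05 (limma) there were 9 members, 12.2% in all, against 7.96% of all genes: 5 snoRNAs higher, 3 lower and 1 host higher. Of the 3 lower, *Snord34* had at most 3 reads in every clone, and its fold is not read. The lowest *Snd1* KO clone exceeded the highest control in 5 members (6.76%), against 9.69% of all genes, and the highest *Snd1* KO clone was under the lowest control in 2 (2.70%), against 4.03%. The first of these shares is above its background and the other two are under theirs. With 3 clones against 3, an exact permutation test of 1 gene cannot give a p under 0.1.

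The 1 gene called was a snoRNA-type gene outside the members by its name, *Gm24966*, whose closest annotated relative was *Gm24570* (87.34% of its 79 bases identical). It had 34, 33 and 26 reads in the controls against 1, 2 and 1 after knockout (log2 fold change -4.15, limma adjusted p = 0.0179). The adjusted p ran from 0.00119 to 0.338 over 21 alternatives and the call was lost in 9, among them each clone left out apart from *Snd1* KO clone 2. The 51 members with more than 3 reads in some clone ran from -1.40 (*Snord83b*) to 1.67 (*Snord58b*).

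*Snord104*, a C/D box RNA, was the most read snoRNA member and held 19.9% of all snoRNA member reads. It had 38, 33 and 74 reads in the controls against 78, 82 and 61 after knockout, or 94.8, 86.7 and 214 TPM against 216, 236 and 163 TPM. Control clones 1 and 2 were low and control clone 3 lay within the *Snd1* KO range, and the difference did not pass (log2 fold change 0.74 ± 0.35 SE, limma adjusted p = 0.607). With clone quality weights it was 0.88 (adjusted p = 0.0397), under the 2-fold part of the call, and over all alternatives the adjusted p ran from 0.0397 to 0.983. Without control clone 3 the change was 1.15 (adjusted p = 0.0950).

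*Snord49a*, from an intron of *2410006H16Rik*, had 7, 8 and 7 reads in controls and 19, 18 and 9 in *Snd1* KO clones. In TPM these were 16.97, 20.4 and 19.6 against 51.1, 50.3 and 23.5, so that the groups did not overlap, although *Snd1* KO clone 3 was near the controls (log2 fold change 1.01 ± 0.30, adjusted p = 0.568). *Snord72*, from an intron of the ribosomal protein gene *Rpl37*, had 5, 14 and 3 reads against 10, 16 and 9. Its groups overlapped (0.92 ± 0.51, adjusted p = 0.656).

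In the H/ACA class, *Snora41*, from an intron of the elongation factor gene *Eef1b2*, had 9, 13 and 4 reads in controls and 20, 15 and 22 in *Snd1* KO clones. All *Snd1* KO clones were above all controls in TPM (11.9, 18.1 and 6.12 against 29.4, 22.9 and 31.3), yet it did not pass (1.25 ± 0.35, adjusted p = 0.568). *Snora57* had 13, 11 and 18 reads against 24, 22 and 10, with overlapping groups (0.39 ± 0.38, adjusted p = 0.796). *Snora31*, from *Tpt1*, had 20, 7 and 12 reads against 20, 14 and 14, also overlapping (0.44 ± 0.35, adjusted p = 0.758).

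Of the Cajal body RNAs *Scarna17* alone had a mean of at least 10 reads. It had 11, 18 and 26 reads in controls and 20, 25 and 27 in *Snd1* KO clones, and control clone 3 had more TPM (66.5) than any *Snd1* KO clone (0.51 ± 0.34, adjusted p = 0.714). *Scarna9* had 1, 0 and 2 reads against 1, 4 and 1, and *Scarna13* had 4, 5 and 2 against 2, 5 and 2, which show no order at this depth.

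The 8 snoRNA and Cajal body members with a mean of at least 10 reads, which also include *Snora17* and *Snora73b*, held 54.4% of the snoRNA member reads. All 8 had a log2 fold change above 0, from 0.16 to 1.25 with a median of 0.58. Of these 8, *Snora41* and *Snord49a* had groups that did not overlap (25%, against 9.69% of all genes in this direction). The same summed level was 207, 229 and 379 TPM in controls and 443, 473 and 342 TPM in *Snd1* KO clones, so control clone 3 again exceeded the lowest *Snd1* KO clone.

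Below 10 reads, 2 more snoRNAs were higher in every *Snd1* KO clone and 2 were lower, 3.7% of 54 each way, against 8.22% and 2.55% of other genes with as few reads and 9.69% and 4.03% of all genes. *Snora2b*, from *Kansl2*, had 2, 2 and 5 reads in controls and 11, 7 and 9 in *Snd1* KO clones (1.502 ± 0.36, limma adjusted p = 0.551). *Snord98*, from *Ccar1*, had 4, 4 and 2 reads against 4, 7 and 8 (0.92 ± 0.31, adjusted p = 0.585). *Snd1* KO clone 1 and control clones 1 and 2 had the same 4 reads of *Snord98*, and they differed in TPM only through the TPM that 1 read stands for in each library.

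*Snora30*, from *Srcap*, had 13, 10 and 5 reads in controls and 4 in each *Snd1* KO clone (-0.95 ± 0.28, limma adjusted p = 0.568). *Snord32a*, from *Rpl13a*, had 5, 7 and 5 reads against 3 in each *Snd1* KO clone (-0.76 ± 0.17, adjusted p = 0.537). The 3 reads of *Snord32a* stand at the limit that a count of 0 allows. At their closest the groups were 2 reads apart for *Snora2b* and *Snord32a*, 1 read apart for *Snora30* and tied for *Snord98*.

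**Figure D3:**
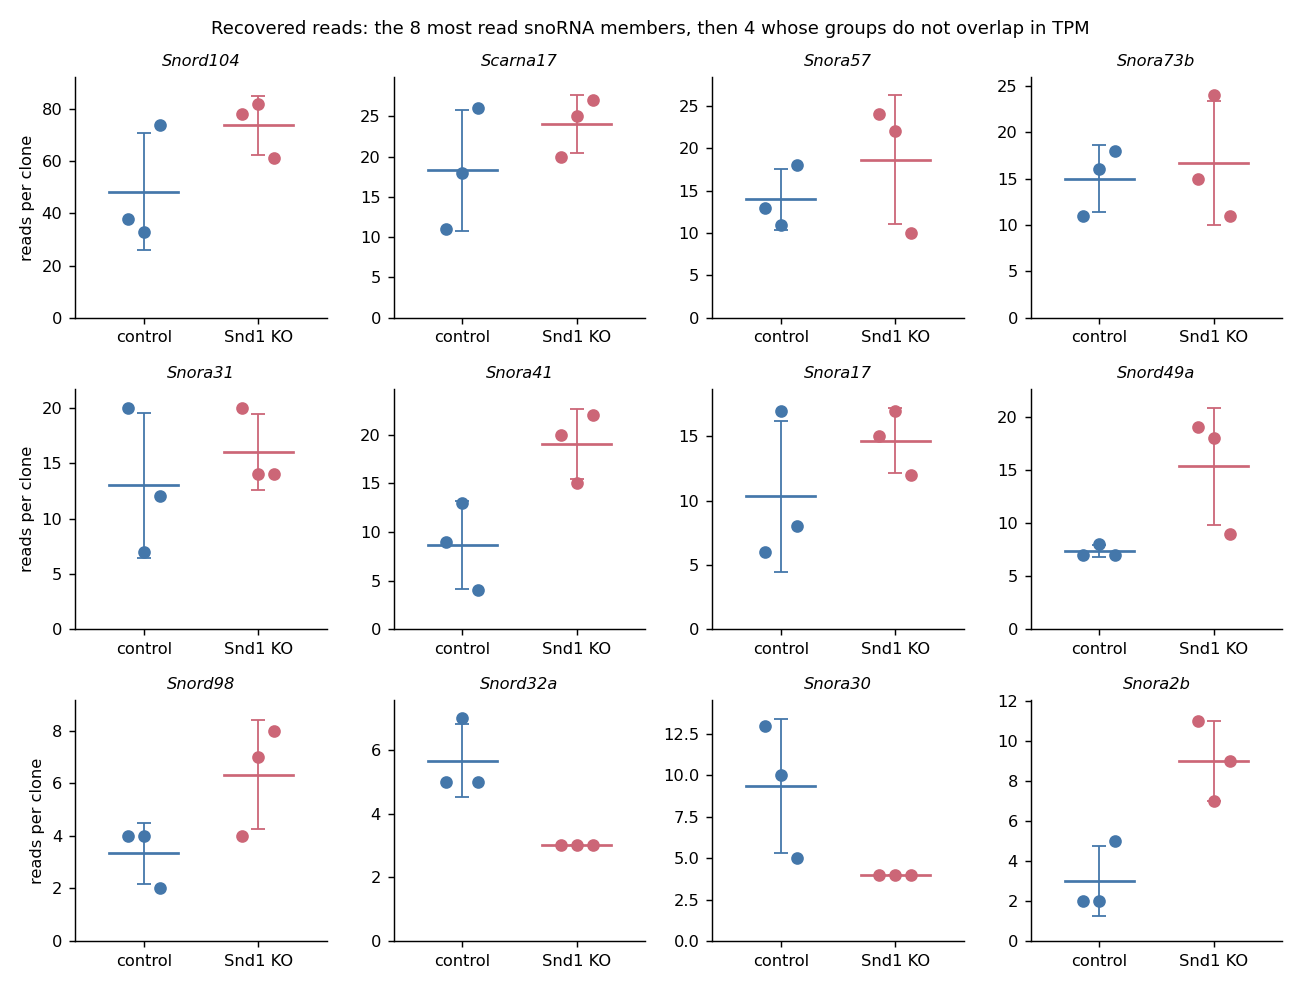
Recovered reads in each clone (points) with the mean (line) and SD (bar) of 3 clones, for the 8 snoRNA and Cajal body members with a mean of at least 10 reads (first 2 rows) and 4 members with fewer reads whose groups do not overlap in TPM (last row). *Snord104* has 33 to 74 reads in controls and 61 to 82 in *Snd1* KO clones, while *Snord32a* has 5 to 7 against 3.

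At least 2-fold apart were 10 of the 39 snoRNA and Cajal body members with more than 3 reads in some clone, 8 higher and 2 lower (*Snord83b* and *Snora21*). The share of all genes tested was 4.89%. That background was not matched for read number, so the difference is not read as a result about the members. The other 23 snoRNA and Cajal body members had at most 3 reads in every clone. Of all 62, *Snora19*, *Snord13*, *Snord42a* and *Snord66* were listed at 0 in every control clone and *Snord37* and *Snord82* in every *Snd1* KO clone, so that they passed the level rule through 1 group alone. *Snord66*, with 4 reads in *Snd1* KO clone 2 and none elsewhere, is among the 8. Its direction followed from the level rule, so it does not count as support. *Snord42a*, in *Rpl23a*, had 0 reads in every clone but *Snd1* KO clones 2 and 3 (1 and 2 reads). *Snord37*, in *Eef2*, had 2, 0 and 1 reads in controls and 0 in each *Snd1* KO clone. Their fitted folds are not read, since both groups lie at or under the limit that a count of 0 allows. *Snord118* (U8 snoRNA, which acts in processing of the large ribosomal subunit RNAs) had 2, 0 and 1 reads against 0, 2 and 0.

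**Figure D4:**
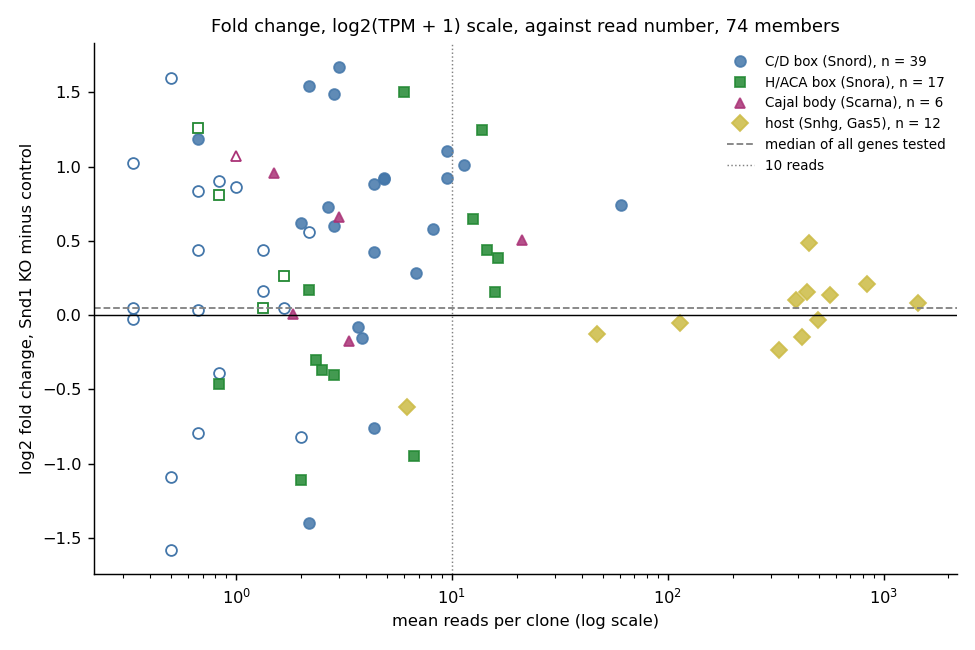
Log2 fold change (*Snd1* KO minus control, log2(TPM + 1) scale) of the 74 members against mean reads per clone (log scale), by class, with the median of all genes tested (0.04, dashed) and 10 reads (dotted). Open symbols are members with at most 3 reads in every clone, whose fold is not read, the others run from -1.40 to 1.67, and the 11 hosts with at least 10 reads lie between -0.23 and 0.48.

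The Snhg genes and *Gas5* were far better covered. Counting each exonic base once, *Snhg8* and *Snhg3* had the highest mean levels (69.4 and 69.0 TPM), followed by *Gas5* at 46.0 TPM. The deposited values use summed exon lengths over all annotated transcripts, 25 for *Gas5* and 3 for *Snhg8*, which sets *Gas5* lower (14.9 TPM) although it had the most reads of the hosts (26.1% of host reads). The comparison between groups is within a gene and keeps the deposited values.

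*Gas5* (chr1:161034422-161038539, plus strand), known for rising on growth arrest, was at 14.8, 12.3 and 16.4 TPM in the controls against 14.7, 17.3 and 14.003 TPM after knockout. The groups overlapped throughout (0.08 ± 0.16, limma adjusted p = 0.910). *Snhg20* (chr11:117076008-117078955, plus strand) was the 1 of these 12 genes higher in every *Snd1* KO clone (8.33%, against 9.69% of all genes). Its level was 9.86, 11.1 and 12.04 TPM in controls and 14.1, 19.6 and 14.1 TPM in *Snd1* KO clones. It had 362, 388 and 382 reads against 466, 624 and 482, and the difference did not pass (0.48 ± 0.17, adjusted p = 0.591). Leaving out each clone in turn gave 0.33 to 0.56.

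*Snhg3*, host of *Snora73a* and *Snora73b*, was at 38.1, 38.9 and 64.6 TPM in controls and 45.8, 61.3 and 45.3 TPM in *Snd1* KO clones. *Snhg1*, host of many C/D box RNAs, was at 9.10, 8.94 and 12.5 TPM against 11.3, 14.5 and 10.1 TPM. *Snhg12* was at 7.10, 6.70 and 10.3 TPM against 7.62, 10.2 and 8.04 TPM. In these 3 hosts control clone 3 and *Snd1* KO clone 2 were the 2 highest clones, and the groups overlapped.

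*Snhg8* was at 56.9, 52.0 and 53.6 TPM in controls and 59.8, 60.4 and 40.7 TPM in *Snd1* KO clones, the last being the lowest of all. *Snhg6* ran from 20.8 to 26.3 TPM in controls and 16.2 to 22.5 TPM in *Snd1* KO clones, and *Snhg5* from 14.7 to 20.2 and 13.8 to 16.2 TPM. *Snhg10*, *Snhg15* and *Snhg17* had log2 fold changes of -0.13, -0.05 and 0.15 with overlapping groups. *Snhg9* had 6, 3 and 16 reads in controls and 3, 4 and 5 in *Snd1* KO clones, with a difference of -0.62 ± 0.54 that was -0.0072 without control clone 3. Apart from *Snhg20*, none of these 12 genes reached an unadjusted p of 0.05.

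Fold changes of snoRNAs were set beside those of their hosts. A host was annotated for 55 of the 62, on the same strand and spanning the whole gene: 44 host genes, with 44 of the snoRNAs in 36 protein-coding genes, 15 of these in 10 ribosomal protein genes. In 34 pairs the snoRNA had more than 3 reads in some clone. Of these 34 the direction was the same in 15, from 14 to 21 when 1 clone was left out (21 without *Snd1* KO clone 1), and the correlation of log2 fold changes was 0.02 (Pearson) and -0.08 (Spearman), a description over pairs that share libraries and in part hosts, with most snoRNA values resting on few reads. The hosts of these 34 ran from -0.36 to 0.47. Of the 34 snoRNAs 10, *Snord66* among them, had a fitted change of at least 2-fold, against 4.89% of all genes tested. That background was not matched for read number, so the difference is not read as a result about the pairs.

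Among all 44 host genes 2 had groups that did not overlap, 1 each way (2.27%, against 9.69% of all genes higher and 4.03% lower), and both are named after their values were seen. *Ccar1*, the host of *Snord98*, was at 29.97, 30.3 and 29.2 TPM in controls and 33.9, 39.6 and 39.2 TPM in *Snd1* KO clones (0.32 ± 0.11, limma adjusted p = 0.585). *Rpl3*, which encodes a large ribosomal subunit protein and holds *Snord43* and *Snord83b*, was at 269.7, 265.8 and 278.2 TPM against 203.4, 221.6 and 210.4 TPM (-0.36 ± 0.09, adjusted p = 0.568).

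*2410006H16Rik*, *Rpl13a* and *Rpl23a* held 3 members each, so that snoRNAs of 1 transcript could be compared. *2410006H16Rik* was at 237, 191 and 285 TPM in controls and 131, 275 and 199 TPM in *Snd1* KO clones (-0.28 ± 0.28, limma adjusted p = 0.803), and its *Snord49a* and *Snord65* were at 1.01 and 0.73, while *Snord49b* had at most 3 reads in any clone. *Rpl13a* was at 26.8, 22.4 and 26.8 TPM against 21.3, 30.0 and 27.8 TPM (0.04 ± 0.16, limma adjusted p = 0.957), and its *Snord32a* was at -0.76. Its *Snord35a* had 0, 0 and 5 reads in controls and 0, 6 and 1 in *Snd1* KO clones. The change of *Snord35a* was 0.62, from -0.39 to 1.82 with 1 clone left out, and sets no direction. *Snord34* had at most 3 reads in any clone. *Rpl23a* was at 625, 624 and 794 TPM against 503, 744 and 633 TPM (-0.13 ± 0.19, adjusted p = 0.871), and its *Snord4a* was at 0.60, while *Snord42a* and *Snord42b* had at most 2 reads in any clone. Of these 9 snoRNAs only *Snord49a* had a mean above 5 reads.

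*Nop56* and *Nop58*, which encode core C/D box proteins, are themselves hosts. *Nop58* held *Snord70* (2, 1 and 0 reads in controls, 5, 1 and 4 in *Snd1* KO clones) and *Snord11* (1, 3 and 0 against 2, 2 and 0), and *Nop56* held *Snord110* (2, 0 and 0 against 1, 1 and 0). These counts set no order between groups. The *Nop58* gene itself was at 40.0 ± 4.81 and 46.6 ± 6.04 TPM (0.21 ± 0.14, limma adjusted p = 0.711).

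**Figure D5:**
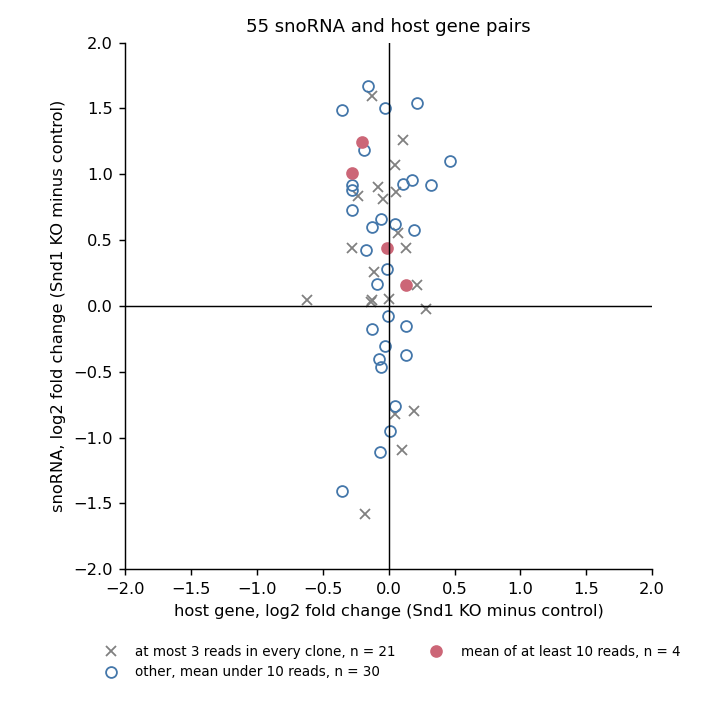
Log2 fold change of 55 snoRNA and Cajal body members against that of the gene that holds them (*Snd1* KO minus control, equal axes), with filled points for the 4 members with a mean of at least 10 reads and crosses for those with at most 3 reads in every clone. Hosts span -0.62 to 0.47, and the snoRNAs a much wider range on the vertical axis.

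Genes for proteins that bind, assemble and trim snoRNAs were compared as well. Of 32 listed symbols 31 were tested, 0 were called (limma) and 0 reached an unadjusted p of 0.05, against 7.96% of all genes. The median log2 fold change was 0.10, with 23 higher and 8 lower, from -0.13 to 0.27. Among the 8 core proteins 7 were higher and the median was 0.14, for example *Fbl*, the C/D box methyltransferase, at 29.8 ± 0.64 and 31.9 ± 0.82 TPM (SD, n = 3 each), and *Dkc1*, the H/ACA box pseudouridine synthase, at 20.5 ± 1.26 and 22.2 ± 0.72 TPM.

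Of this list 4 genes were higher in every *Snd1* KO clone (*Fbl*, *Nhp2*, *Rpap3*, *Npm1*), 12.9% against 9.69% of all genes. Only *Tcof1* was lower in every *Snd1* KO clone, 3.23% against 4.03% of all genes. The largest of these changes, in either direction, was *Nhp2*, an H/ACA core protein, at 39.6 ± 1.65 TPM in controls and 48.3 ± 6.55 TPM in *Snd1* KO clones (0.27 ± 0.13, limma adjusted p = 0.607). *Rpap3*, of the assembly machinery, and *Npm1*, a nucleolar chaperone, differed by 0.15 and 0.14. None passed the test.

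Counts of calls among the members moved with how the clones were weighted. Control clone 3 and *Snd1* KO clone 1 stood apart from the clones of their groups, with estimated weights of 0.279 and 0.286, against 3.91 for *Snd1* KO clone 3. With limma's clone quality weights 9 members were called, 12.2% against 5.02% of all genes: *Snord7*, *Snord17*, *Snord42a*, *Snord59a*, *Snord65*, *Snord91a*, *Snora2b* and *Snora41* higher and *Snora30* lower. *Snord42a* and *Snord59a* had at most 3 reads in every clone, and without such members 7 of 51 were called (13.7%). Without both clones, an alternative chosen after seeing the data, 3 members were called (*Snord7*, *Snord59a* and *Snora2b*), 4.05% against 0.746% of all genes, and 2 of the 51. *Snord59a* had 2 reads in control clone 3 and in *Snd1* KO clones 2 and 3, and 0 in the rest, so that without control clone 3 its call rests on 4 reads. *Snord7* had 2, 2 and 6 reads in controls and 3, 8 and 8 in *Snd1* KO clones, and *Snord42a* has 3 reads in all.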

How the data were processed

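RNA from each of the 6 clones (RNA integrity number of at least 7) was made into cDNA with a Takara kit, prepared with Nextera XT and sequenced as paired-end reads of 100 bases. Per the submitters' processing notes the tools were FastQC, Trimmomatic, HISAT2, HTSeq and DESeq2 with mm10, and versions, annotation and counting mode are not given in the sources used here. The authors deposited 1 table per clone of TPM values, each summing to 1000000, and replicates were not pooled. Row identifiers were matched to GENCODE M21 (53706 of 53808). Reads were recovered from TPM and summed exon length. All values of the 74 members came out whole within 0.01 read, and 25805760 to 32993334 reads per clone limit the precision. These totals exceed the reads per library that the study's methods state. Whether both mates of a pair were counted is not given, so reads may not be independent molecules. Whether counting used strand is not given either, so reads from an antisense gene cannot be told apart.

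Genes whose mean reached 0.5 TPM were tested, 3 *Snd1* KO against 3 control clones, with limma 3.58.1 (R 4.3.3; trend, log2(TPM + 1), two-sided, Benjamini-Hochberg over 17823 genes, no covariate). A call needed an adjusted p under 0.05 and a 2-fold change, the study's thresholds. At these thresholds the study, with its own processing, reported far more genes than the 1 called here. The fit was tested on simulated data. The members, the lists and the rule for named genes (hosts, the 3 members of each class with the highest mean TPM, members whose groups did not overlap at 10 or more reads, neighbours of the level rule, hosts of 3 or more members, the largest changes of the snoRNA protein list, *Snd1* and *Gm24966*) were chosen with earlier results of these data known. *Snora2b*, *Snord98*, *Snord32a* and *Snora30* were named after their values were seen. *Bcd1* of the protein list matched no symbol (the name is also used for *Znhit6*, which the list holds), and 1 listed cell type marker is not reported here.

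In the labels, same-numbered clones share only a number. The correlations of their deviations from group means were 0.0507, -0.1221 and -0.0736, against -0.0953 to 0.1627 for clones of different numbers. Such deviations sum to 0 within each group of 3 clones, so they cannot exclude a shared batch. The alternatives were other pseudocounts, filters, scalings, variance models, clone weights, a replicate block, each clone left out, voom on recovered reads, union exon length and other thresholds.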

Additional observations from a re-analysis of the deposited data

How the results depend on the processing

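With 0 members called as reported, limma's clone quality weights called 9 and leaving out control clone 3 and *Snd1* KO clone 1 together called 3. The other 21 settings, including each clone left out, voom on recovered reads and the looser thresholds, called 0. The fit with the clone number as a replicate block called 0 members and gave the same median log2 fold change of 0.27, and it changed no call of a named member or of the snoRNA protein list. Over all genes it called 0 (limma; 1195 at an unadjusted p under 0.05), with *Gm24966* at an adjusted p of 0.0651. The median over all members stayed above 0 in every setting (0.16 to 0.49), and the median of the hosts ran from -0.04 to 0.17 around 0.02.

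The count of members higher in every *Snd1* KO clone (5) was 9 to 16 when 1 clone was left out, 25 without control clone 3 and *Snd1* KO clone 1, and 3 among the 19 members with at least 10 reads. The count lower in every *Snd1* KO clone (2) was 2 to 7 when 1 clone was left out, 4 without both clones and 0 among those 19. Fewer clones per group make such counts rise by construction. The share of all genes in the same settings is not given here, so these counts are not read as a result about the members.

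Among the hosts and the 3 members of each other class with the highest mean TPM, the sign turned in 13 values. In 421 the direction and the side of the threshold were kept. *Scarna2*, named for its place at the level rule, was not in this tally and also turned, from 0.0054 to -0.23 with clone weights. *Snhg8* was 0.0154 without insulin and mitochondrial genes and 0.15 without *Snd1* KO clone 3. *Snhg9* was 0.12 with clone weights and 0.15 without both clones. With each clone left out, and with control clone 3 and *Snd1* KO clone 1 both left out, the range was -0.1313 to 0.1482 for *Snhg8*, -0.0067 to 0.4424 for *Snhg3*, -0.0253 to 0.1944 for *Gas5*, -0.3189 to 0.0972 for *Snhg10*, -0.1587 to 0.0842 for *Snhg15*, -0.0120 to 0.3525 for *Snhg12*, -1.1159 to 0.1465 for *Snhg9* and -0.4936 to 0.0128 for *Scarna13*, and the cause was not tested. *Snora41* passed with clone weights (log2 fold change 1.002, adjusted p = 0.0418, against 0.0418 to 0.938 over its alternatives). Over all settings the Snord median (0.58) ran from 0.28, without *Snd1* KO clone 2, to 0.88, the Snora median (0.17) from 0.03, with clone weights, to 0.44, and the Scarna median (0.58) from 0.11, without control clone 1, to 2.14, with a pseudocount of 0.01. Depth limits the snoRNAs: 54 of 62 had a mean under 10 reads.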
